A study of Homo sapiens with 9 samples.

Results

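Iron handling was examined in Huh-7 cells, a human hepatoma line, through 10 genes that carry, take up, store, export or sense iron: TF, TFRC, TFR2, FTH1, FTL, SLC40A1, SLC11A2, CP, HAMP and HFE. The members were taken by their gene names from the 58735 genes of the deposited table, and each name matched 1 row. RNA was sequenced from Huh-7 control cells, from the APOB knockout cells Ako-3 and from the MTTP knockout cells Mko-3, with 3 libraries in each group. The knockouts were made with CRISPR-Cas9 in Huh-7 cells, and each is represented by 1 clone. Loss of the gene and other differences between that clone and the control cells therefore cannot be told apart. All 3 groups were grown in DMEM with FBS and kept overnight in medium without serum before RNA isolation. The same control libraries serve both knockouts, so the comparisons of Ako-3 and of Mko-3 cells with control cells are not independent. The labels call the 3 libraries of a group biological replicates without saying whether these were separate cultures, so the p-values measure the spread between these libraries.

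Liver cells make most of the proteins that move iron through the body. Transferrin (TF) carries ferric iron in plasma, and ceruloplasmin (CP), a copper ferroxidase, oxidizes iron so that transferrin can bind it. Cells take up iron-loaded transferrin through the transferrin receptor TFRC, keep iron inside the ferritin shell of FTH1 and FTL chains, move it across endosomes through SLC11A2, and export it through ferroportin (SLC40A1). Hepcidin (HAMP) is the liver hormone that binds ferroportin and causes its loss from the cell surface, and hepatocytes set its transcription through HFE, TFR2 and the BMP and SMAD pathway. Iron regulatory proteins bind a hairpin, the iron responsive element, in several of these mRNAs. Bound in a 5′ UTR it blocks translation, and bound in the 3′ UTR of TFRC it protects the mRNA from decay.

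The libraries held 14638727 to 20179760 counts on genes. The targeted genes followed their labels. APOB mRNA was lower in Ako-3 than in control cells by 1.36 on the log2 scale (edgeR, adjusted p = 7.13e-05), and MTTP mRNA was lower in Mko-3 cells by 2.88 (adjusted p = 9.36e-19). Of 11 hepatocyte markers, 10 had a mean above 1 FPKM (fragments per kilobase, scaled to library size) in each group, with a summed FPKM of 4996 to 5171 in control, 5849 to 6132 in Ako-3 and 4834 to 5059 in Mko-3 libraries. The macrophage markers CD68, CD163 and VSIG4 were listed at 0 FPKM in all libraries, and the 8 macrophage markers summed to 3.46 to 7.17 FPKM. Of these CD14 had a mean above 1 FPKM in each group, and AIF1 in control cells. None of 7 stellate cell and fibroblast markers had a mean over 1 FPKM. The 6 endothelial markers summed to 9.93 to 11.4 FPKM in control, 13.5 to 14.7 in Ako-3 and 7.34 to 8.02 in Mko-3 libraries, with CLEC4G at 0 throughout. PECAM1 had a mean above 1 FPKM in each group, and CDH5 in Mko-3 cells. Cholangiocyte markers, of which KRT7 was at 0, summed to 120 to 128 FPKM in control, 118 to 124 in Ako-3 and 166 to 171 in Mko-3 libraries. KRT19, EPCAM and SOX9 had means above 1 FPKM in each group. The share of counts on mitochondrial genes was 5.52% to 6.17% in control, 7.06% to 7.40% in Ako-3 and 5.75% to 5.82% in Mko-3 libraries. The part of these differences in the results was not tested.

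The members spanned more than 3 orders of magnitude in FPKM. In control cells the ferritin chains stood highest, with 2957 ± 162 FPKM for FTL and 1157 ± 63.2 for FTH1 (SD, n = 3). They ranked 7 and 20 among all genes. TFRC followed with 103 ± 4.01 FPKM, TF with 90.3 ± 1.91, CP with 45.5 ± 4.03, SLC40A1 with 30.5 ± 3.25, TFR2 with 13.5 ± 0.925 and SLC11A2 with 10.3 ± 0.514. HAMP at 1.68 ± 0.382 FPKM and HFE at 1.47 ± 0.217 were the lowest, and their control libraries overlapped, so the order of this pair is not resolved. Every other pair of neighbours in the control order was apart in all 3 libraries.

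The order depends on group and on gene length. TF was above TFRC in Ako-3 cells, at 149 ± 7.36 against 93.4 ± 5.17 FPKM, and below it in control and Mko-3 cells. TFR2 was above SLC40A1 in both knockouts and below it in control cells. The deposited FPKM divide by the full exon length of a gene, which was 26199 bases for TF and 3010 for HAMP, against 20166 and 406 for the single MANE Select transcript. Library-scaled counts divided by MANE length placed HAMP at 12.4 ± 2.80 per kilobase and HFE at 1.62 ± 0.233 in control cells, which separated that pair. On that scale SLC11A2 was above TFR2 in control cells, and CP was above TF in Mko-3 cells, at 129 ± 7.27 against 123 ± 3.09, and neither difference was beyond the spread of the libraries.

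**Figure D1:**
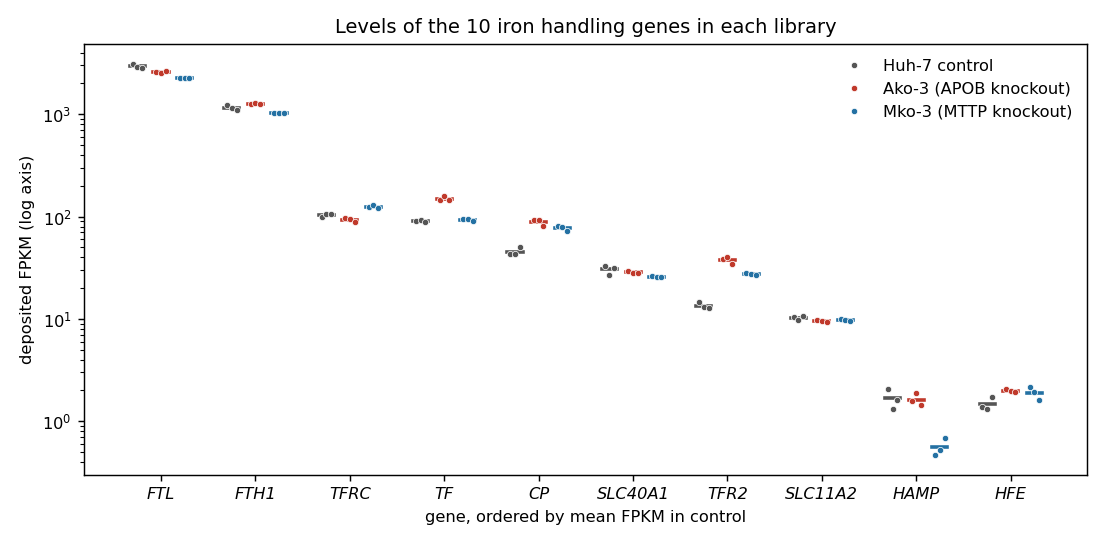
Deposited FPKM on a log axis for the 10 genes, which are ordered by their control mean. Points are single libraries and short lines the mean of 3. The ferritin genes FTL and FTH1 are above 1000 FPKM in all 9 libraries, HAMP and HFE are near 1, and HAMP is lowest in the 3 Mko-3 libraries.

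The comparison of Ako-3 with control cells asks how the APOB knockout clone differs from control cells. TFR2, CP and TF, a receptor and a pair of secreted plasma proteins, were higher in Ako-3 cells, and HAMP differed by less than its error. All 10 members passed the filter on low counts. A gene was called when it differed by 1 or more on the log2 scale and edgeR's quasi-likelihood test, adjusted over all genes by the Benjamini-Hochberg method, gave p no higher than 0.05. It was taken to have risen or fallen on that adjusted p alone. TFR2 was the 1 member called, against 8.52% of the 15787 genes tested (3.52% higher and 5.00% lower). On the adjusted p alone 6 members passed, 4 higher and 2 lower, against 49.9% of all genes (25.5% and 24.4%). The libraries of the groups did not overlap for 6 members, 5 higher and 1 lower, against 57.6% of all genes (31.0% and 26.6%). The median log2 fold change was 0.03 over the members and -0.01 over all genes.

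The comparison of Mko-3 with control cells asks the same of the MTTP knockout clone. MTTP encodes MTP, the lipid transfer protein that loads apoB with lipid. TFR2 was called higher and HAMP called lower, so that 2 of 10 members were called against 11.0% of 15745 genes (3.82% higher and 7.22% lower). On the adjusted p alone 8 members passed, 4 higher and 4 lower, against 54.0% of all genes (26.9% and 27.1%). The groups did not overlap for 7 members, 3 higher and 4 lower, against 60.7% of all genes (32.4% and 28.3%). The median log2 fold change was -0.02 over the members and -0.01 over all genes.

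Set directly against each other, Mko-3 cells had less of most members than Ako-3 cells. Of the 10 members 7 were lower and 1 was higher on the adjusted p, against 20.6% lower and 21.1% higher among 15528 genes (41.6% in all). HAMP was the 1 member called, against 5.73% of genes (2.26% higher and 3.47% lower). The libraries did not overlap for 7 members, 1 higher and 6 lower, against 49.8% of all genes (26.1% and 23.6%). The median was -0.20 over the members and 0.0048 over all genes. The 10 members together took 0.908% to 0.951% of all counts in control, 1.01% to 1.07% in Ako-3 and 0.827% to 0.851% in Mko-3 libraries.

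**Figure D2:**
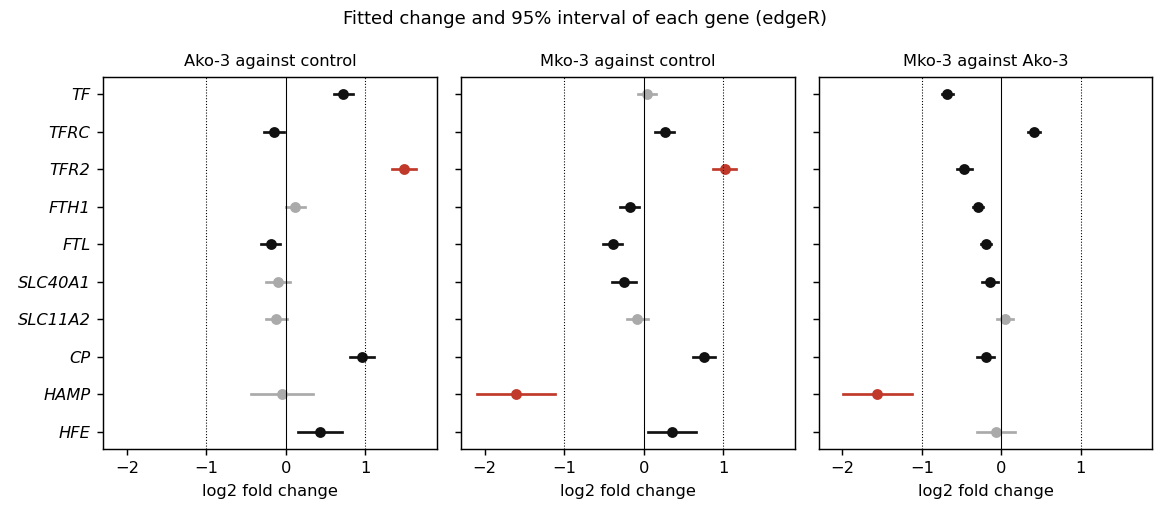
Log2 fold change of each gene with its 95% interval in the 3 comparisons. Red marks genes called, black those with an adjusted p of at most 0.05 alone and grey the others, and dotted lines mark a log2 change of 1 in either direction. TFR2 is red in both knockouts, and HAMP is red in Mko-3 cells against control and against Ako-3 cells.

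The plasma iron carrier TF lies on the plus strand of chromosome 3 (hg38, chr3:133745956-133796640). Its level in CPM, which are counts scaled to library size with TMM factors, was 2363, 2423 and 2307 in the control, 3821, 4247 and 3859 in the Ako-3, and 2535, 2513 and 2418 in the Mko-3 libraries. The Ako-3 libraries stood above all 6 others, while control and Mko-3 libraries overlapped. TF rose 1.65-fold in Ako-3 cells (95% interval 1.52 to 1.79, log2 0.72 ± 0.057 SE, edgeR adjusted p = 2.61e-09). The fold in Mko-3 cells was 1.03 (0.953 to 1.11, adjusted p = 0.544). The difference between the knockouts passed the test, with TF lower in Mko-3 by 0.68 on the log2 scale (SE 0.033, edgeR adjusted p = 3.29e-29). The 62 tested genes within 5 Mb of TF had a median log2 change of 0.15 in Ako-3 cells. The same-strand gene SRPRB overlaps TF and held at most 1.80% of its counts.

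The ferroxidase CP is on the minus strand of the same chromosome (chr3:149162410-149222055). Its control libraries held 316, 315 and 365 CPM, its Ako-3 libraries 688, 688 and 591, and its Mko-3 libraries 594, 590 and 536. Every knockout library was above every control library, and the knockouts overlapped each other. CP rose 1.94-fold in Ako-3 cells (1.74 to 2.15, log2 0.95 ± 0.073 SE, edgeR adjusted p = 2.66e-09) and 1.69-fold in Mko-3 cells (1.53 to 1.86, log2 0.75 ± 0.067 SE, adjusted p = 6.67e-09). It fell just short of a log2 change of 1 in Ako-3 cells, and was called there without control replicate 3 (1.03) or without Ako-3 replicate 3 (1.02). CP was lower in Mko-3 than in Ako-3 cells by 0.20 (SE 0.051, edgeR adjusted p = 0.00327). This did not pass in 4 of 17 alternatives, which were DESeq2 and the limma fits on FPKM (adjusted p 4.75e-08 to 0.156 over all 17). HPS3 overlaps CP on the opposite strand with 957 to 2035 counts, up to 35.5% of those of CP, and whether the counting used strand is not given in the sources used here. HPS3 moved the other way, from 109 ± 2.16 CPM in control to 65.4 ± 3.21 in Ako-3 and 68.4 ± 5.03 in Mko-3 cells. The median log2 change of the tested genes within 5 Mb of CP was 0.01 in Ako-3 and 0.07 in Mko-3 cells.

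**Figure D3:**
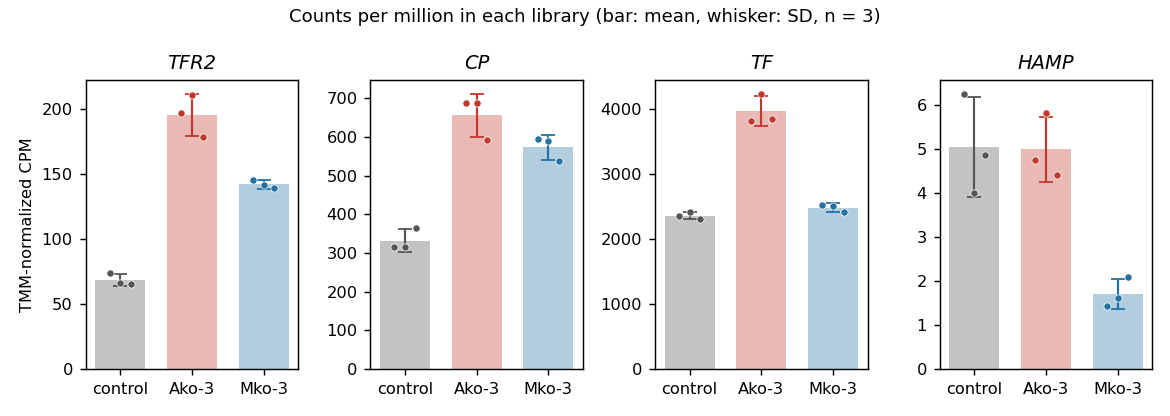
TMM-normalized CPM of TFR2, CP, TF and HAMP in each library, with bars for the mean of 3 libraries and whiskers for the SD. TFR2 and CP are above control in all 6 knockout libraries, TF is high in the Ako-3 libraries, and HAMP is low in the Mko-3 libraries.

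TFR2, the second transferrin receptor, is expressed mainly in hepatocytes and takes part in sensing iron-loaded transferrin. It lies on chromosome 7 (chr7:100620416-100642779, minus strand). TFR2 held 73.7, 66.3 and 65.3 CPM in the control, 197, 211 and 178 in the Ako-3, and 145, 141 and 139 in the Mko-3 libraries, so that no 2 groups overlapped. It rose 2.80-fold in Ako-3 cells (2.52 to 3.11, log2 1.48 ± 0.073 SE, edgeR adjusted p = 2.6e-12) and 2.02-fold in Mko-3 cells (1.84 to 2.23, log2 1.02 ± 0.068 SE, adjusted p = 9.74e-11). It was lower in Mko-3 than in Ako-3 cells by 0.47 (SE 0.047, adjusted p = 1.38e-13). The Mko-3 value sits at the threshold of 1, and the call there was lost without control replicate 3, where the log2 change was 0.98. Genes within 5 Mb of TFR2 had medians of 0.02 in Ako-3 and -0.02 in Mko-3 cells.

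TFRC, the receptor that brings transferrin iron into most dividing cells, is at chr3:196027183-196082189 on the minus strand. It held 775, 838 and 826 CPM in the control, 780, 766 and 699 in the Ako-3, and 986, 1039 and 974 in the Mko-3 libraries. The Mko-3 libraries were above all others. TFRC rose by 0.26 on the log2 scale in Mko-3 cells (95% interval 0.15 to 0.38, edgeR adjusted p = 0.000471) and was higher there than in Ako-3 cells by 0.41 (SE 0.037, adjusted p = 1.36e-15), the 1 member for which that direction passed. In Ako-3 cells it fell by 0.15 (SE 0.060, adjusted p = 0.0466), with libraries that overlapped control. The adjusted p was above 0.05 in 11 of 17 alternatives, and over all 17 it ranged from 0.0104 to 0.275. The 11 included leaving out control replicate 2 or 3, or any single Ako-3 library, and the value without Ako-3 replicate 3 was -0.10.

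HFE, a protein related to the MHC class I chains that binds TFRC and is mutated in hereditary hemochromatosis, was among the rarest members (chr6:26087281-26098343, plus strand). Its libraries held 114 to 178 counts in control, 190 to 226 in Ako-3 and 141 to 218 in Mko-3 cells. In CPM they were 7.86, 7.49 and 9.74 in control, 11.9, 11.7 and 11.0 in Ako-3, and 12.4, 11.3 and 9.23 in Mko-3 libraries. Ako-3 libraries were above control, and 1 Mko-3 library was within the control range. HFE rose 1.35-fold in Ako-3 cells (1.11 to 1.64, edgeR adjusted p = 0.0124). In Mko-3 cells the fold was 1.28 (1.04 to 1.58, adjusted p = 0.0428), and this did not pass in 10 of 17 alternatives (adjusted p 0.0197 to 0.202 over all 17), including without control replicate 1 or 2 and without Mko-3 replicate 1 or 2.

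The ratio of TFR2 to TFRC counts, taken within a library and chosen after the values were seen, does not depend on library size. It was 0.0844 ± 0.0092 in control, 0.261 ± 0.012 in Ako-3 and 0.142 ± 0.0057 in Mko-3 libraries (SD, n = 3). The 3 groups did not overlap, and each pair gave p = 0.1 in a two-sided exact permutation test, which is the smallest p that 3 against 3 libraries allow.

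The ferritin chains form the shell in which cells keep iron, FTH1 with the ferroxidase site and FTL with the surface on which iron mineralizes. FTH1 (chr11:61959718-61967660, minus strand) held 2486, 2323 and 2236 CPM in control, 2563, 2680 and 2561 in Ako-3, and 2121, 2131 and 2124 in Mko-3 libraries. FTL (chr19:48965301-48966878, plus strand) held 2743, 2581 and 2462 CPM in control, 2315, 2296 and 2330 in Ako-3, and 2033, 2024 and 2021 in Mko-3 libraries. The groups did not overlap for either chain, and Mko-3 libraries were the lowest for both.

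FTL fell in both knockouts, by 0.19 on the log2 scale in Ako-3 (SE 0.057, edgeR adjusted p = 0.00771) and by 0.39 in Mko-3 cells (SE 0.056, adjusted p = 4.46e-06). FTH1 fell by 0.18 in Mko-3 cells (SE 0.056, adjusted p = 0.0101). In Ako-3 cells its log2 change was 0.12 (SE 0.057, adjusted p = 0.087), which did not pass although all 3 libraries were above control. Both chains were lower in Mko-3 than in Ako-3 cells, FTH1 by 0.30 (adjusted p = 2.2e-12) and FTL by 0.20 (adjusted p = 5.15e-07). The 205 tested genes within 5 Mb of FTL had a median difference of -0.21 between the knockouts, near that of FTL itself. Against control the genes around FTL had medians of -0.09 in Mko-3 and 0.09 in Ako-3 cells. Genes within 5 Mb of FTH1 had a median of -0.03 between the knockouts. A shift of the region was not tested. The fall of FTH1 in Mko-3 cells did not pass in 4 of 17 alternatives (adjusted p 0.000958 to 0.0611 over all 17). These were leaving out any 1 of the 3 Mko-3 libraries (-0.17 each time) and limma on log2(FPKM + 1) without the filter. The FTH1 change in Ako-3 cells passed in 2 of 17, the fit of all 9 libraries and without control replicate 1 (adjusted p 0.0169 to 0.343 over all 17). The fall of FTL in Ako-3 cells did not pass without Ako-3 replicate 2 (-0.17).

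The ratio of FTH1 to FTL counts, also chosen after the values were seen, was 0.900 to 0.908 in control, 1.10 to 1.17 in Ako-3 and 1.04 to 1.05 in Mko-3 libraries. FTL was thus the chain with more raw counts in control cells and FTH1 in both knockouts. Raw counts do not allow for gene length. Per length FTL stayed the higher chain, at 2593 against 1260 FPKM for FTH1 in Ako-3 and 2274 against 1032 in Mko-3 cells. The mean ratio was 1.24 times the control value in Ako-3 and 1.16 times in Mko-3 cells (two-sided exact permutation p = 0.1 for each, the smallest possible). Ferritin pseudogenes share sequence with these mRNAs. The 25 annotated FTH1 pseudogene rows held 0.92% to 1.41% of the FTH1 counts, and the 16 FTL rows held 0.0597% to 0.113% of the FTL counts. Reads placed by the aligner on 1 of several near-identical copies remain uncertain at that scale. BEST1, on the strand opposite FTH1, held at most 0.963% of its counts.

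**Figure D4:**
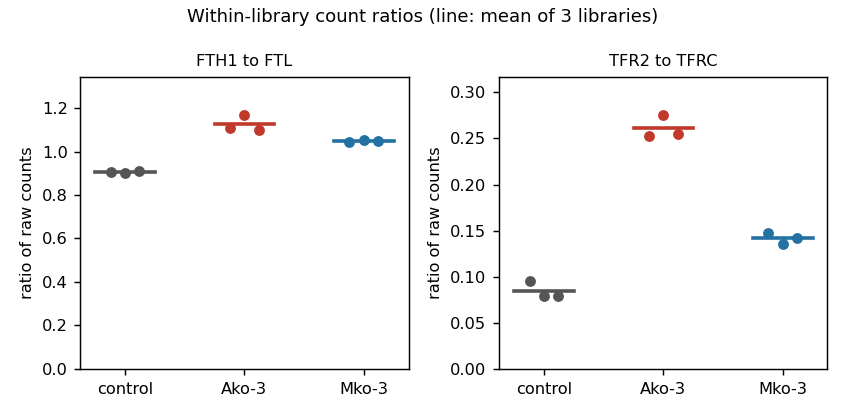
Ratio of raw counts within each library, FTH1 to FTL on the left and TFR2 to TFRC on the right, with lines for the mean of 3 libraries. No groups overlap in either ratio. Both ratios are lowest in control and highest in Ako-3 libraries.

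The iron responsive elements of these mRNAs are shown because they divide the members by the direction in which iron acts on them. A search of the UTRs of the MANE Select transcripts (GENCODE release 44, hg38) asked for a C, a stem of 5 base pairs and the loop CAGTGN, with G-T pairs allowed, on the strand of the transcript. Each element is printed as 30 bases from 5′ to 3′, with the 6 loop bases in capitals and T for U. Such a match was present in a UTR of 140 of 19061 MANE transcripts, or 0.734%. The ferritin and ferroportin elements are in the 5′ UTR:
FTH1, chr11:61967573-61967602, minus strand: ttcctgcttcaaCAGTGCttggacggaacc
FTL, chr19:48965335-48965364, plus strand: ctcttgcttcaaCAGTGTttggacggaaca
SLC40A1, chr2:189580660-189580689, minus strand: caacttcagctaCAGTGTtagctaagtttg
The TFRC elements are in the 3′ UTR, where 4 matched, all on the minus strand:
TFRC, chr3:196050978-196051007: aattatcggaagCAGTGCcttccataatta
TFRC, chr3:196050574-196050603: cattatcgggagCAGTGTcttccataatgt
TFRC, chr3:196050509-196050538: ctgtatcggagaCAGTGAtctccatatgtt
TFRC, chr3:196050462-196050491: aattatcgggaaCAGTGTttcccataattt
The long 3′ UTR of TF held 1 further match, for which no function is claimed.

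The mRNAs with a 5′ element and TFRC with its 3′ elements moved in opposite directions in Mko-3 cells. FTH1, FTL and SLC40A1 fell and TFRC rose against control, and the same 4 directions passed the test against Ako-3 cells, with the exceptions for FTH1 and SLC40A1 under alternatives that are given with each gene. In Ako-3 cells against control TFRC and FTL both fell, and FTH1 and SLC40A1 did not pass. Translation, which the 5′ elements are known to act on, was not measured. Of the 4 genes listed for the iron regulatory proteins and their turnover, HERC2, a ubiquitin ligase, rose by 0.47 in Mko-3 cells (edgeR adjusted p = 1.08e-05), while the iron regulatory proteins IREB2 and ACO1 fell by 0.23 (adjusted p = 0.00323) and 0.15 (adjusted p = 0.0368). In Ako-3 cells HERC2 also rose, by 0.25 (edgeR adjusted p = 0.0114), and IREB2 also fell, by 0.17 (adjusted p = 0.0291). ACO1 was -0.02 there (adjusted p = 0.807). FBXL5, which targets iron regulatory proteins for degradation, fell by 0.33 in Mko-3 (adjusted p = 0.00125) and by 0.47 in Ako-3 cells (adjusted p = 5.24e-05). These 4 were named after their values were seen. Of 5 other tested mRNAs listed with an element, 2 rose and 2 fell in Mko-3 and 1 rose and 3 fell in Ako-3 cells. Of all genes 26.9% rose and 27.1% fell in Mko-3 cells, and 25.5% rose and 24.4% fell in Ako-3 cells. CDC14A, a phosphatase, was called in Ako-3 cells at -1.02 (adjusted p = 1.27e-06), and fell short of 1 in size without control replicate 1 or 2 or Ako-3 replicate 1 or 3 (-0.96 without the last).

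The exporter SLC40A1 (chr2:189560579-189583758, minus strand) held 142, 116 and 137 CPM in control, 130, 125 and 122 in Ako-3, and 115, 114 and 113 in Mko-3 libraries. The Mko-3 libraries were just below the lowest control library, replicate 2, and below the Ako-3 libraries. SLC40A1 fell by 0.24 in Mko-3 cells (SE 0.072, edgeR adjusted p = 0.00689) and was lower there than in Ako-3 cells by 0.14 (adjusted p = 0.0123). Each of these did not pass in 3 of 17 alternatives. Against control these were the 3 limma fits on FPKM (adjusted p 5.07e-05 to 0.119 over all 17), and against Ako-3 cells they were the fit of all 9 libraries, limma without the filter and leaving out Ako-3 replicate 1 (-0.12, adjusted p 0.0058 to 0.103 over all 17). In Ako-3 cells against control the change was -0.10 (95% interval -0.25 to 0.05, adjusted p = 0.274), and -0.18 without control replicate 2, where it passed (adjusted p = 0.0151, against 0.0151 to 0.657 over the 17 alternatives).

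SLC11A2, the endosomal iron importer DMT1, is at chr12:50979401-51028566 on the minus strand. It held 105, 99.5 and 109 CPM in control, 100, 99.2 and 95.7 in Ako-3, and 104, 102 and 98.7 in Mko-3 libraries, and all groups overlapped. Its log2 change was -0.12 in Ako-3 (interval -0.26 to 0.02, adjusted p = 0.142) and -0.08 in Mko-3 cells (interval -0.22 to 0.06, adjusted p = 0.317). The intervals allow a fall to 0.837 times and 0.861 times the control level. Among the members it was the 1 that passed in none of the 3 comparisons. The gene has mRNA forms with and without an element in the 3′ UTR, which counts per gene do not separate.

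HAMP encodes the hormone hepcidin (chr19:35280716-35285143, plus strand) and was the lowest member in CPM. Its control libraries held 118, 61 and 89 counts, its Ako-3 libraries 78, 113 and 76, and its Mko-3 libraries 25, 28 and 32. In CPM these were 6.26, 4.01 and 4.87, then 4.75, 5.83 and 4.40, then 1.43, 1.61 and 2.09. The 3 Mko-3 libraries were below all 6 others, and control and Ako-3 libraries overlapped. HAMP fell to 0.328 times the control level in Mko-3 cells (0.233 to 0.460, log2 -1.61 ± 0.24 SE, edgeR adjusted p = 6.7e-06) and to 0.339 times the Ako-3 level (0.250 to 0.459, log2 -1.56 ± 0.22 SE, adjusted p = 8.49e-09). In Ako-3 cells against control the fold was 0.966 (0.735 to 1.27, adjusted p = 0.846). The 155 tested genes within 5 Mb of HAMP had a median log2 change of -0.30 in Mko-3 cells, with quartiles of -0.79 and 0.02. Of these 155 genes 29 were called, beside 11.0% of all genes tested. In bulk RNA, fewer cells with an mRNA and less of it per cell cannot be told apart.

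The HAMP promoter is shown because the factors that act on hepcidin transcription bind there. The 250 bases before the RefSeq start (GRCh38.p14, chr19:35282278-35282527, plus strand) hold, in capitals, 1 match to GGCGCC, the core of the BMP response element, from -105 to -100, and 1 match to TTCNNNGAA, the letters of a STAT site, from -93 to -85, counted back from the start:
HAMP promoter: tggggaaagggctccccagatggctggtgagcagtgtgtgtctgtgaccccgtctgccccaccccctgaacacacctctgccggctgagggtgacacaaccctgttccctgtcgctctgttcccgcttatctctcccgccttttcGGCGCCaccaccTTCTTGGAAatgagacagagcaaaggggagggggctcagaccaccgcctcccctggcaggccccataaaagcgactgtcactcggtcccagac
Both patterns read the same on either strand and do not overlap each other here. GGCGCC was present in 16.4% and TTCNNNGAA in 6.57% of 35116 RefSeq promoter entries, searched over the 250 bases before the start. The entries also hold 50 bases after the start, which were not searched. Entries were present for TF, TFRC, FTL, SLC40A1, SLC11A2, HAMP and HFE.

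As a list the BMP, SMAD and IL-6 genes that act on hepcidin moved both ways. The IL-6 genes were lower in Mko-3 cells, STAT3 at -0.43 (edgeR adjusted p = 1.32e-05), IL6ST at -0.38 (adjusted p = 2.9e-05) and IL6R at -0.23 (adjusted p = 0.0286). In Ako-3 cells STAT3 was at -0.49 (adjusted p = 2.74e-06), IL6ST at -0.60 (adjusted p = 3.83e-07) and IL6R at 0.18 (adjusted p = 0.0909). Of 26 listed genes 24 were tested. In Ako-3 cells 5 rose and 10 fell, where 25.5% of all genes rose and 24.4% fell, and in Mko-3 cells 8 rose and 9 fell, where 26.9% of all genes rose and 27.1% fell. HJV, the BMP co-receptor hemojuvelin, was called higher in Ako-3 cells (log2 1.07 ± 0.15 SE, edgeR adjusted p = 4.36e-06), where it rose from 5.10 to 11.0 CPM, and was 0.99 without control replicate 2. In Mko-3 cells it was 0.33 (adjusted p = 0.0928). TMPRSS6, the protease that cleaves hemojuvelin and lowers hepcidin, rose by 0.84 in Mko-3 (adjusted p = 6.97e-07) and by 0.32 in Ako-3 cells (adjusted p = 0.0236), and was higher in Mko-3 than in Ako-3 cells by 0.52 (adjusted p = 3.5e-08).

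The transcripts that BMP signals are known to raise went in different directions in Mko-3 cells. ID1 was -0.06 there (adjusted p = 0.48), ID2 was -0.10 (adjusted p = 0.19), ID3 rose by 0.37 (adjusted p = 0.00532), the inhibitor SMAD6 rose by 0.61 (adjusted p = 2.37e-07) and SMAD7 fell by 0.28 (adjusted p = 0.00336). In Ako-3 cells, where HAMP was at the control level within its error, ID1 fell by 0.47 (adjusted p = 6.05e-06), ID3 by 0.48 (adjusted p = 0.000523) and the ligand BMP2 by 0.69 (adjusted p = 1.39e-08). SMAD7 fell by 0.31 there (adjusted p = 0.00146), SMAD6 rose by 0.21 (adjusted p = 0.0176) and ID2 was -0.03 (adjusted p = 0.706). BMP2 also fell in Mko-3 cells, by 0.16 (adjusted p = 0.0242). TMPRSS6, ID1, ID2, ID3, SMAD6, SMAD7, BMP2, STAT3, IL6ST and IL6R were named after their values were seen. SMAD9 was called lower in both knockouts, at -1.15 in each (adjusted p = 1.36e-05 in Ako-3 and 1.56e-05 in Mko-3 cells). ERFE, which encodes the hepcidin suppressor erythroferrone, was called lower in Mko-3 cells (log2 -2.25 ± 0.22 SE, adjusted p = 2.76e-08), with 21 to 25 counts against 88 to 140 in control libraries. In Ako-3 cells ERFE also fell, by 0.72 (SE 0.17, adjusted p = 0.00186), with 61 to 75 counts, and was not called. The ligand BMP6 had 0 to 9 counts in any library, too few to compare.

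**Figure D5:**
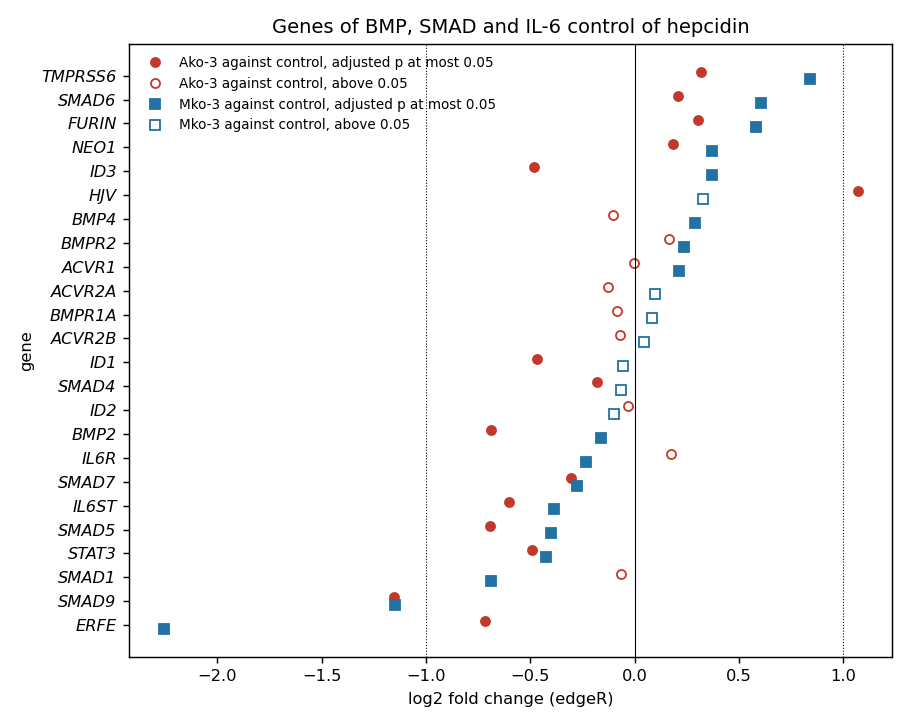
Log2 fold change against control of the 24 tested genes of BMP, SMAD and IL-6 control of hepcidin, with circles for Ako-3 and squares for Mko-3 cells. Filled symbols have an adjusted p of at most 0.05, and dotted lines mark a log2 change of 1. HJV is past 1 in Ako-3 cells, SMAD9 is below -1 in both knockouts, and ERFE is lowest in Mko-3 cells.

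Across the 9 libraries the genes most like HAMP in log2 CPM were PSMG3-AS1 (Pearson's r = 0.99), ABCG5, a sterol transporter chain (0.98), and GNG7, a G protein subunit (0.98), among 16104 genes compared. The points share their groups and library sizes, and r is given as a description.

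Among the genes for uptake of iron and heme, HP, HPX, STEAP3, CYBRD1 and LCN2 were called in at least 1 comparison. In Ako-3 cells 2 of 12 tested were called higher and 0 lower, against 8.52% of all genes. In Mko-3 cells 1 of 12 was called higher and 2 lower, against 11.0%. Between the knockouts 0 of 11 were called higher and 3 lower, against 5.73%. HP, the plasma protein haptoglobin that binds free hemoglobin, held 36.2 to 39.2 CPM in control, 103 to 120 in Ako-3 and 9.69 to 14.3 in Mko-3 libraries, with no overlap. It rose by 1.53 on the log2 scale in Ako-3 cells (SE 0.077, edgeR adjusted p = 3.54e-12) and fell by 1.65 in Mko-3 cells (SE 0.11, adjusted p = 1.3e-10). HPX, the heme carrier hemopexin, rose 2.30-fold in Ako-3 cells (adjusted p = 6.27e-09) and had a log2 change of 0.0090 in Mko-3 cells (adjusted p = 0.952). STEAP3, the endosomal ferrireductase that prepares transferrin iron for SLC11A2, was called higher in Mko-3 cells at 1.36 (adjusted p = 9.31e-10) and was 0.99 in Ako-3 cells (adjusted p = 1.81e-07), where it missed the call on size alone and was called without control replicate 2 (1.09) or Ako-3 replicate 2 (1.01). CYBRD1, another ferrireductase, was at 12 to 16 counts in control and 0, 0 and 1 in Mko-3 libraries. It counts among the genes called lower there, but no fold is given since Mko-3 cells were at the floor of 3 counts. LCN2, which binds bacterial iron carriers, was called lower in Mko-3 than in Ako-3 cells at -1.09 (adjusted p = 2.74e-24), while its control libraries spread from 61.8 to 122 CPM. That difference was -0.99 without Mko-3 replicate 2. Against control LCN2 was -0.95 in Mko-3 cells (adjusted p = 0.0541), and was called there without control replicate 2, at -1.17. Of the 12 tested genes of this list 4 rose and 2 fell in Ako-3 cells, and 1 rose and 3 fell in Mko-3 cells. Of all genes 25.5% rose and 24.4% fell in Ako-3 cells, and 26.9% rose and 27.1% fell in Mko-3 cells.

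Targets of hypoxia-inducible factors were listed since TF, TFRC, CP and HMOX1 are known to respond to hypoxia. In Ako-3 cells 5 of 10 tested rose and 2 fell, and in Mko-3 cells 6 of 11 rose and 3 fell, beside the 25.5% and 24.4% of all genes in Ako-3 and the 26.9% and 27.1% in Mko-3 cells. The glucose transporter SLC2A1 rose by 0.68 in Ako-3 (edgeR adjusted p = 2.08e-06) and was called in Mko-3 cells at 1.17 (adjusted p = 1.28e-10). The hydroxylase EGLN3 was called in Ako-3 cells at 1.11 (adjusted p = 3.02e-08) and was 0.94 in Mko-3 cells (adjusted p = 1.3e-07), while ANKRD37 was called lower in both, at -1.23 and -1.18. CA9, a carbonic anhydrase, was called in Mko-3 cells at 3.00 (adjusted p = 3.91e-06), from 1 to 11 counts in control to 41 to 65 in Mko-3 libraries.

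The remaining lists held no called gene. Of 15 genes of heme synthesis and breakdown, 5 rose and 2 fell in Ako-3 cells and 6 rose and 4 fell in Mko-3 cells. Of 19 genes of mitochondrial iron and iron-sulfur assembly, 3 rose and 2 fell in Ako-3 and 3 rose and 3 fell in Mko-3 cells. Of 8 iron chaperone and ferritin turnover genes, 3 rose and 2 fell in Ako-3 and 2 rose and 2 fell in Mko-3 cells, among them NCOA4, the receptor that delivers ferritin to autophagy, which fell by 0.17 (adjusted p = 0.0227) and 0.39 (adjusted p = 1.72e-05) and was named after its values were seen. Of 5 genes for copper supply and other ferroxidases, 1 rose and 1 fell in Ako-3 and 2 rose and 1 fell in Mko-3 cells. Over all 112 other iron genes, 52.9% of those tested passed the adjusted p in Ako-3 cells and 59.2% in Mko-3 cells, against 49.9% and 54.0% of all genes, and between the knockouts 56.9% against 41.6%. By the call on size and adjusted p, 6.86% of 102 tested were called in Ako-3 cells (4 higher and 3 lower), and 7.77% of 103 in Mko-3 cells (3 higher and 5 lower), against the 8.52% and 11.0% of all genes. Between the knockouts it was 4.90% (1 higher and 4 lower), against 5.73%.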

How the data were processed

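Poly-A RNA libraries were sequenced as paired ends. To make the raw counts, the authors aligned reads to hg38 with HISAT2 2.0.5 and counted genes with featureCounts 1.5.0-p3, and deposited the counts without normalization. The deposited FPKM are these counts divided by gene length and library size, as the authors made them. The submitters' processing notes also name GRCh37 and hg19, with no role given. The counts were fitted in R 4.3.3 by edgeR 4.0.16 (TMM, filterByExpr with a minimum count of 10, robust quasi-likelihood F test), with the 6 libraries of each comparison in a separate fit. Depth per library was 14638727 to 20179760 counts, so low genes such as HAMP have wide intervals. Groups at no more than 3 counts per library were treated as at the floor. Fits were tested on simulated data. The members, lists and tests were chosen with earlier results of these data known.

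Named genes were the 10 members, APOB and MTTP, list genes called in any comparison (at most 4 per list and comparison, by adjusted p), pseudogenes of ferritin as a sum, the 3 genes most like the member with the largest change by Pearson's r of log2(CPM + 1), and neighbours within 5 Mb as a median. Alternatives were other normalizations, filters, a fit of all 9 libraries, DESeq2 1.42.0, limma 3.58.1 on log2(FPKM + 1) and log2(FPKM + 0.1), a replicate block, summed pseudogenes and leaving out each library. Division by MANE Select length was added after seeing the data.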

Additional observations from a re-analysis of the deposited data

Results flagged for a closer look

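Several genes differed between the knockout clones, by the edgeR test of Mko-3 against Ako-3 cells, in which the shared control libraries take no part. The differences are log2 values of Mko-3 minus Ako-3. Among the members HAMP differed by -1.56, TF by -0.68, TFR2 by -0.47, FTH1 by -0.30, FTL by -0.20, CP by -0.20 and SLC40A1 by -0.14, while TFRC differed by 0.41. The difference did not pass in 4 of 17 alternatives for CP and in 3 of 17 for SLC40A1. Among the other iron genes HP differed by -3.18, with a rise against control in Ako-3 and a fall in Mko-3 cells. ERFE differed by -1.54, HPX by -1.19, LCN2 by -1.09 and HJV by -0.74. CA9 differed by 3.35, SLC2A1 by 0.49 and STEAP3 by 0.36. The groups hold 3 libraries each, so no single library was tested as standing apart.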

How the results depend on the processing

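Of 510 member values under the alternatives, 464 kept their direction and their side of the adjusted p, 37 no longer passed, 5 newly passed and 4 changed sign. The members called in Ako-3 cells numbered 1 to 2 when single libraries were left out, with CP added without control replicate 3 or Ako-3 replicate 3. Those called in Mko-3 cells numbered 1 to 2, with TFR2 lost without control replicate 3. They were 1 with upper-quartile factors, which also lost TFR2, and 0 with limma on log2(FPKM + 1), with or without the filter, where 5 members instead of 8 passed the adjusted p without the filter. Between the knockouts 0 were called with limma on log2(FPKM + 1), with or without the filter. That pseudocount shrinks low genes by construction. With it and the filter, HAMP was -0.77 (limma adjusted p = 0.00352) and TFR2 0.98 (adjusted p = 0.000197) in Mko-3 cells against control, and HAMP was -0.75 between the knockouts, so the calls were lost on size.

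The signs that changed belong to values near 0 that did not pass the test. With upper-quartile factors TF in Mko-3 cells was -0.027, HPX in Mko-3 cells -0.057 and SMAD9 between the knockouts -0.0094, and with at least 10 counts in every library the same HPX value was -0.00215 and the same SMAD9 value -0.000189. With single libraries left out, HAMP in Ako-3 cells ranged from -0.18 to 0.14 (0.035 without Ako-3 replicate 3), HFE between the knockouts from -0.17 to 0.036, HPX in Mko-3 cells from -0.11 to 0.13, and LCN2 in Ako-3 cells from -0.092 to 0.36. APOB in Mko-3 cells ranged from -0.19 to 0.061, SMAD9 between the knockouts from -0.12 to 0.098, and ANKRD37 between the knockouts from -0.17 to 0.33.

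Same-numbered libraries did not deviate together (9 correlations from -0.12 to 0.10, with 0 above 0.1), so the main fits used no pairing. Such correlations cannot show whether same-numbered libraries were prepared together. With the replicate number as a block 1, 2 and 1 members were called in the 3 comparisons, and 5, 8 and 8 passed the adjusted p. HAMP and HFE, with at most 226 counts, are limited by depth.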
